A study of Homo sapiens with 12 samples.

Results

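The enzymes that build the linker of proteoglycans were examined at the mRNA level in HEYA8, a long-established line of ovarian cancer cells. The 10 genes were chosen by symbol, as enzymes that assemble, modify or extend the linker or make its donor sugars: XYLT1, XYLT2, B4GALT7, B3GALT6, B3GAT3, FAM20B, EXTL2, EXTL3, UGDH and UXS1. All 10 have a row among the 56269 genes of the count table, and 9 of them passed the filter on low counts, XYLT1 being the exception. RNA was sequenced in 12 libraries, 3 from each of 4 lines that carry a stable lentiviral insert and were sorted by a dTomato reporter. The control vector line carries the empty backbone, and the other lines express betaglycan (TGFBR3) with alanine in place of serine 534 (S534A, called CS-BG), of serine 545 (S545A, called HS-BG) or of both (∆GAG, whose genotype label reads deleted GAG). The title of S545A library 3 names serine instead of alanine at position 545, while its genotype label reads S545A, and the library was used as S545A. All lines were kept in RPMI-1640 with 10% FBS without further treatment. Each construct is represented by 1 sorted line, and no line with unmutated betaglycan was among the libraries, so a difference between lines cannot be told apart from a difference between constructs. In bulk RNA, fewer expressing cells and less RNA per cell also cannot be told apart.

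A glycosaminoglycan chain does not start on the protein itself but on a short linker of xylose, galactose, galactose and glucuronic acid, which is built in the Golgi on a serine followed by glycine. Heparan sulfate and chondroitin sulfate share this linker, and the next sugar that is added decides which chain grows. A kinase and a phosphatase act on the xylose, and nucleotide sugars made in the cytosol and in the Golgi supply the building blocks. Loss of single linker enzymes in people causes connective tissue and skeletal disorders known as linkeropathies. The comparisons address whether cells that express betaglycan with 1 or neither of its attachment serines differ in the mRNA of the enzymes that would build the linker there.

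The attachment sites are shown because they are what the constructs change and what the xylosyltransferases act on. TGFBR3 lies on the minus strand of chromosome 1 in GRCh38, and both serine codons are in coding sequence of exon 11. The reference coding strand of GENCODE release 29 reads as follows, with the codons of the serine and of the glycine after it in capitals, at chr1:91716649-91716699 for serine 534 and chr1:91716616-91716666 for serine 545.
serine 534: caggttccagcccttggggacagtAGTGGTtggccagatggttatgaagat
serine 545: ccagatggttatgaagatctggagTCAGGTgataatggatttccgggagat
The count table holds reads per gene, so it does not show which codon was present in a library.

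Counts are given as CPM, the usual count per unit of library size after TMM scaling of the libraries, and levels of different genes are compared only as RPKM, CPM divided by the summed exon length of the table in kilobases. Libraries held 16410001 to 29504297 counts. A gene at 0 could still have had 3 counts, or at most 0.182 CPM in the shallowest library, a limit for counting error only. TGFBR3 was 413 to 574 CPM in the S534A and S545A libraries and 15.9 to 260 CPM in the other 6, of which 4 went against their labels. The libraries labelled ∆GAG 2 and 3 held 20.3 and 21.4 CPM, near the 15.9 CPM of control vector 1, while those labelled control vector 2 and 3 held 259 CPM each, near the 260 CPM of ∆GAG 1. Labels were used as given, and results without these 4 libraries are given beside the main ones. That fit holds only ∆GAG 1 and control vector 1 of those groups, so their variation is assumed to equal that of the S534A and S545A libraries. Libraries 2 and 3 of the control vector, ∆GAG and S545A groups were nearly alike (chi-square per degree of freedom 1.40 to 1.94, against 16.4 to 74.4 for the other pairs of a group), so n counts libraries and may not count separate cultures. S534A 2 and ∆GAG 1 stood apart in HSPA5, the main chaperone of the endoplasmic reticulum, with 287 and 11864 CPM against 1228 to 3906 CPM in the other 10 libraries. Of 9 markers of serous carcinoma, KRT7 (949 CPM on average), KRT8 (890 CPM), KRT18 (602 CPM) and PAX8 (249 CPM) were high. WT1 (5.57 CPM), EPCAM (1.21 CPM) and KRT19 (0.451 CPM) were low, and MUC16 and CDH1 were at 0 in every library. The mesenchymal markers VIM, FN1 and CDH2 averaged 2701, 660 and 139 CPM. Of 9 markers of leukocytes, endothelium and fibroblasts, CD3E, DCN and LUM were at 0 in every library, CD68 and PTPRC had at most 2 counts, and PECAM1 was 0.205 to 0.768 CPM. COL1A1 was 7.98 to 17.7 CPM, VWF 2.64 to 14.9 CPM and CDH5, the endothelial cadherin, 168 to 431 CPM.

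In these cells 9 of the linker genes were expressed at similar levels, and all but 1 of the xylosyltransferase counts came from XYLT2. The xylosyltransferases XYLT1 and XYLT2 catalyse the same step, the transfer of xylose to the serine. XYLT1 (chromosome 16, 17101769 to 17470881, minus strand, 15 exons after merging) had 1 count in ∆GAG 1 and 0 in the other 11 libraries, against 16107 counts of XYLT2 over all 12 libraries (291674417 counts in all). Per length, XYLT2 was at least 603- to 1410-fold higher than the limit set for XYLT1 by 3 counts in each of those 11 libraries. XYLT2 (chromosome 17, 50346092 to 50363138, plus strand, 12 merged exons) had 56.7, 51.1 and 49.1 CPM in control vector libraries 1, 2 and 3, 53.1, 50.5 and 55.6 in ∆GAG, 54.4, 70.2 and 54.5 in S534A, and 56.3, 49.6 and 56.2 in S545A. S534A 2 was the highest and the other 11 libraries lay within 49.1 to 56.7 CPM, so that the groups overlapped in every comparison.

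The promoters of the xylosyltransferases are shown because 1 gene was expressed and the other was not detected above 1 count. They are RefSeq sequences of GRCh38.p14 from 250 bases before to 50 bases after the start, at chr16:17470911-17471210 on the minus strand for XYLT1 and chr17:50345876-50346175 on the plus strand for XYLT2. Capitals mark motifs found on either strand: the GC box GGGCGG, and CCACG, which overlaps the E box CACGTG where both occur.
XYLT1 promoter: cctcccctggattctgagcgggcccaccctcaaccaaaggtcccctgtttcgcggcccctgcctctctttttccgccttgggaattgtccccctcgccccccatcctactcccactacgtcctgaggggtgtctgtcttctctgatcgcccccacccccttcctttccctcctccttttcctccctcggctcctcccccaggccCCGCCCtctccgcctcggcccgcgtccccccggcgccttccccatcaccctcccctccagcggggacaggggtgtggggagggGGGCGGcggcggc
XYLT2 promoter: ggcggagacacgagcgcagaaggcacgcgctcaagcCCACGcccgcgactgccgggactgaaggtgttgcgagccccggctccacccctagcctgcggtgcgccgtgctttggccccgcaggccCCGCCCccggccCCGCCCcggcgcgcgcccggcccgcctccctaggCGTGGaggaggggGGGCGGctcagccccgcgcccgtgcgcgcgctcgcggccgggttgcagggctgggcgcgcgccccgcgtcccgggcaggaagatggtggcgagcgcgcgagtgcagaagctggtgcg
XYLT1 has 2 GC boxes and 19 CG dinucleotides at 70% GC, and XYLT2 has 3 GC boxes, 2 CCACG matches and 46 CG dinucleotides at 79.3% GC. Both starts were GC-rich. Over all 35116 promoters of the table the median was 58.7% GC with 14 CG dinucleotides.

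B4GALT7 and B3GALT6 add the first and the second galactose of the linker. B4GALT7 (chromosome 5, 177600100 to 177610347, plus strand, 6 merged exons) had 18.1, 21.1 and 18.8 CPM in control vector, 23.9, 16.2 and 19.2 in ∆GAG, 20.1, 29.6 and 18.5 in S534A, and 20.0, 18.4 and 19.0 in S545A. B3GALT6 (chromosome 1, 1232265 to 1235041, plus strand), whose whole transcript is a single exon, had 27.5, 33.2 and 30.8 CPM in control vector, 39.6, 26.8 and 31.7 in ∆GAG, 30.8, 37.7 and 30.3 in S534A, and 29.5, 30.8 and 31.0 in S545A. Both galactosyltransferases were highest in S534A 2 and ∆GAG 1 and lowest in ∆GAG 2, and S545A was the tightest group for both. Their log2(CPM + 1) values followed each other over the 12 libraries with a Pearson correlation of 0.88, a description in which all points share the library scaling and the 2 libraries that stand apart.

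B3GAT3 transfers the glucuronic acid that completes the linker. It lies on the minus strand of chromosome 11 (62615296 to 62622175, 6 merged exons) and had 17.8, 20.4 and 16.9 CPM in control vector, 20.2, 21.8 and 20.7 in ∆GAG, 20.8, 32.5 and 21.4 in S534A, and 22.1, 19.8 and 20.0 in S545A. All 3 S534A libraries were above all 3 control vector libraries, but only S534A 2 lay clear of the rest, and S534A overlapped ∆GAG and S545A. Its promoter is shown because this gene gave the largest difference of the 10 against control vector, at chr11:62621937-62622236 on the minus strand with GC boxes in capitals.
B3GAT3 promoter: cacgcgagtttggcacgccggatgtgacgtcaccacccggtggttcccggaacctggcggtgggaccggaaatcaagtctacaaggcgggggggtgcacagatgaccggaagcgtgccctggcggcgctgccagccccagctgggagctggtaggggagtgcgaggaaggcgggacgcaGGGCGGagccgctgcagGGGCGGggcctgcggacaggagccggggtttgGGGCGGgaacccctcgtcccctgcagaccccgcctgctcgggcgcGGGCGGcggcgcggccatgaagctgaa
It has 4 GC boxes and 32 CG dinucleotides at 72.3% GC, and none of the other motifs searched, which were the CCAAT box, the TATA box TATAAA, the AP-1 site TGACTCA, the E box, CCACG and the endoplasmic reticulum stress element, in which a CCAAT box and a CCACG stand at a fixed spacing. These windows were searched on both strands.

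FAM20B phosphorylates the xylose, and EXTL2 can add N-acetylglucosamine to the phosphorylated linker, which ends chain growth. FAM20B (chromosome 1, 179025804 to 179076562, plus strand, 9 merged exons) had 53.5, 53.8 and 53.4 CPM in control vector, 46.8, 58.6 and 59.3 in ∆GAG, 50.9, 47.2 and 53.7 in S534A, and 54.8, 55.3 and 51.9 in S545A. It was the steadiest of the 10, with a coefficient of variation of 7.11% over the 12 libraries, and ∆GAG 1 and S534A 2 were its lowest libraries. EXTL2 (chromosome 1, 100872372 to 100895998, minus strand, 7 merged exons) had 50.2, 45.8 and 49.1 CPM in control vector, 45.2, 49.4 and 49.8 in ∆GAG, 54.1, 36.4 and 48.3 in S534A, and 53.8, 45.5 and 43.4 in S545A. S534A held both its highest and its lowest library. PXYLP1, the phosphatase that removes the phosphate again, was far lower: per length FAM20B was 14.1- to 28.7-fold (median 21.0-fold) above it.

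EXTL3 adds the first N-acetylglucosamine and thereby commits the linker to heparan sulfate. It lies on the plus strand of chromosome 8 (28600469 to 28755599, 18 merged exons) and had 108, 78.3 and 77.0 CPM in control vector, 84.7, 85.2 and 95.2 in ∆GAG, 96.9, 86.3 and 83.7 in S534A, and 96.1, 75.3 and 75.8 in S545A. In control vector and S545A, library 1 was above libraries 2 and 3, which lay close together. Per length, EXTL3 was 0.574 to 0.868 times the level of EXTL2, with the highest ratio in S534A 2. CSGALNACT1 and CSGALNACT2 add N-acetylgalactosamine at the same position, which starts chondroitin sulfate. CSGALNACT2 was 13.4 to 20.9 CPM, so that EXTL3 was 1.15 to 2.28 times as high per length, whereas CSGALNACT1 held 4 to 18 counts per library and EXTL3 was 75.7 to 172 times as high.

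UGDH oxidises UDP-glucose to UDP-glucuronic acid, and UXS1 converts that to UDP-xylose, the donor for the first sugar. UGDH (chromosome 4, 39498755 to 39528311, minus strand, 15 merged exons) had 35.1, 37.5 and 40.8 CPM in control vector, 64.2, 35.4 and 34.2 in ∆GAG, 36.2, 27.9 and 36.6 in S534A, and 32.5, 34.5 and 33.8 in S545A. ∆GAG 1 was far above and S534A 2 below the other 10 libraries, which lay within 32.5 to 40.8 CPM. UXS1 (chromosome 2, 106093303 to 106194339, minus strand, 20 merged exons) had 50.7, 58.5 and 58.3 CPM in control vector, 48.7, 54.8 and 51.9 in ∆GAG, 50.2, 62.5 and 52.4 in S534A, and 53.1, 53.9 and 54.2 in S545A. The same 2 libraries were its extremes with the order turned around, S534A 2 being the highest and ∆GAG 1 the lowest. The ratio of UGDH to UXS1 per length was therefore 0.774 in S534A 2 and 2.29 in ∆GAG 1, around a median of 1.13. SLC35B4, a transporter of UDP-xylose, was 25.8 to 35.1 CPM, with its lowest value in ∆GAG 1.

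The promoter of UGDH is shown because UGDH varied most, at chr4:39527390-39527689 on the minus strand, with GC boxes and CCACG in capitals.
UGDH promoter: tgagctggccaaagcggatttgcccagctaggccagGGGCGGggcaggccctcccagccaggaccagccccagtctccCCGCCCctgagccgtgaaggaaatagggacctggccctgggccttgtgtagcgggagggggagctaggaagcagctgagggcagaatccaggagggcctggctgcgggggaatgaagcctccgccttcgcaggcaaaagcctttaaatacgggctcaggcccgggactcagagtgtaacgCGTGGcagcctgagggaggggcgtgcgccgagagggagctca
This RefSeq start lies 872 bases from the 5′ end of the gene in the table. It holds 2 GC boxes and 1 CCACG match, and the endoplasmic reticulum stress element was not among its letters. The promoters of 9 of the 10 genes were searched, and that of EXTL3 was not. Every one searched held at least 1 GC box, against 45% of all promoters, and none held the stress element, against 0.0769%. B3GALT6 and EXTL2 were the 2 with a CCAAT box and an E box, which 34.6% and 7.26% of all promoters have.

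**Figure D1:**
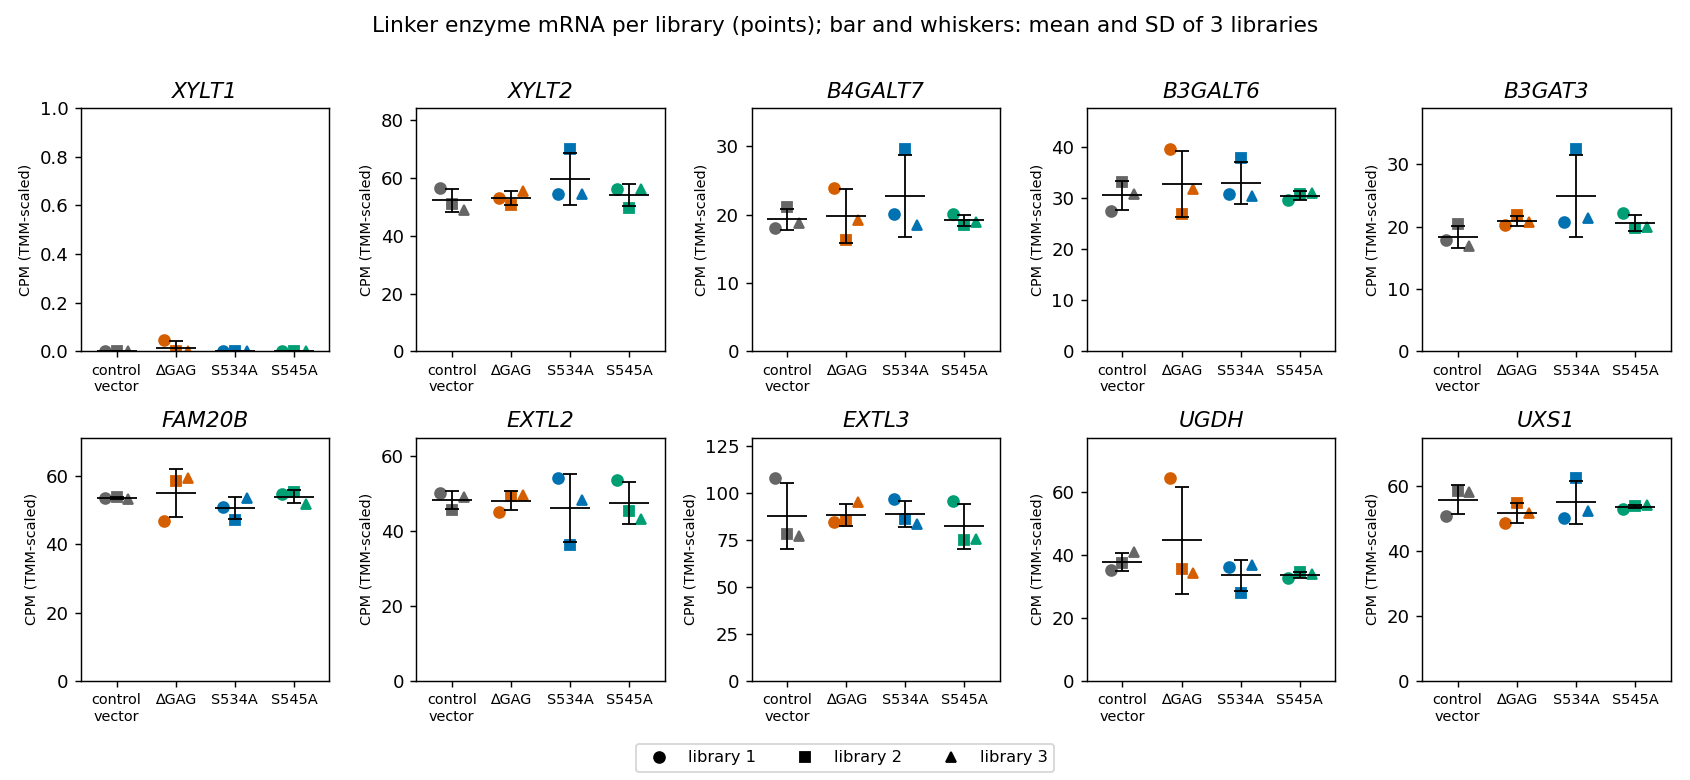
CPM (y axis, from 0, a separate scale in each panel) of the 10 linker genes in the 4 lines (x axis), with a point per library and the mean and SD of 3 libraries as bar and whiskers. The groups lie on each other in most panels, UGDH reaches 64.2 CPM in ∆GAG 1, B3GAT3 reaches 32.5 CPM in S534A 2, and XYLT1 lies at or near 0.

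**Figure D2:**
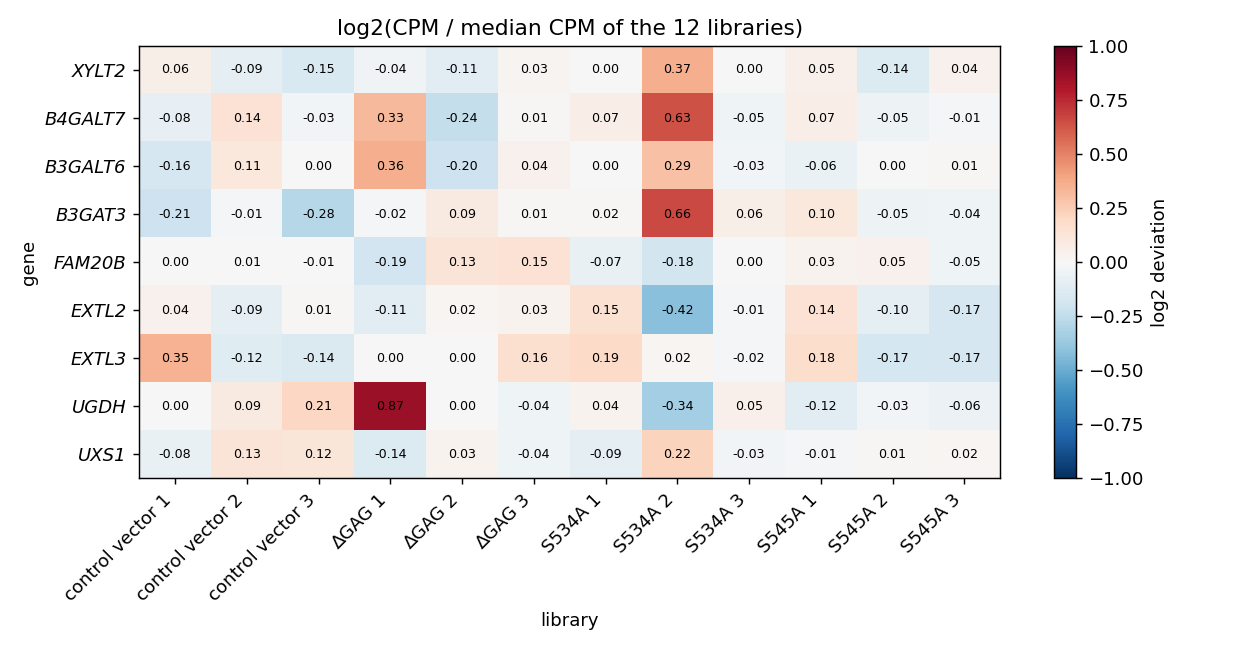
log2 of each library's CPM over the gene's median of 12 libraries (colour and printed value) for the 9 expressed linker genes. S534A 2 is above the median for XYLT2, B4GALT7, B3GALT6, B3GAT3 and UXS1 and below it for FAM20B, EXTL2 and UGDH, and the largest deviation is 0.87 for UGDH in ∆GAG 1.

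Per length the expressed genes spanned a narrow range. B3GALT6 was the highest (11.4 ± 1.34 RPKM, SD, n = 12 libraries), followed by XYLT2 (10.0 ± 1.02), EXTL2 (9.84 ± 0.998), UGDH (9.24 ± 2.22), FAM20B (8.82 ± 0.627), B3GAT3 (8.73 ± 1.59), UXS1 (7.70 ± 0.563), EXTL3 (6.57 ± 0.773) and B4GALT7 (4.11 ± 0.711). The ranges of all neighbours in this order overlapped, except those of B4GALT7 and XYLT1, so the order of neighbours above B4GALT7 is not firm. It is an order of means: XYLT2 was above EXTL2 in only 3 of 12 libraries, and UGDH above FAM20B in only 5 of 12. B4GALT7 was nevertheless the lowest of the 9 in all 12 libraries, and EXTL2 held places from 1 to 6. EXT1 and EXT2, which polymerise heparan sulfate, were higher than every linker gene in the mean, with 41.9 and 21.1 RPKM. The median coefficient of variation of the 9 genes was 11.8%, against 14.6% for all 16069 genes tested, whose median level was lower (17.0 against 47.6 CPM).

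**Figure D3:**
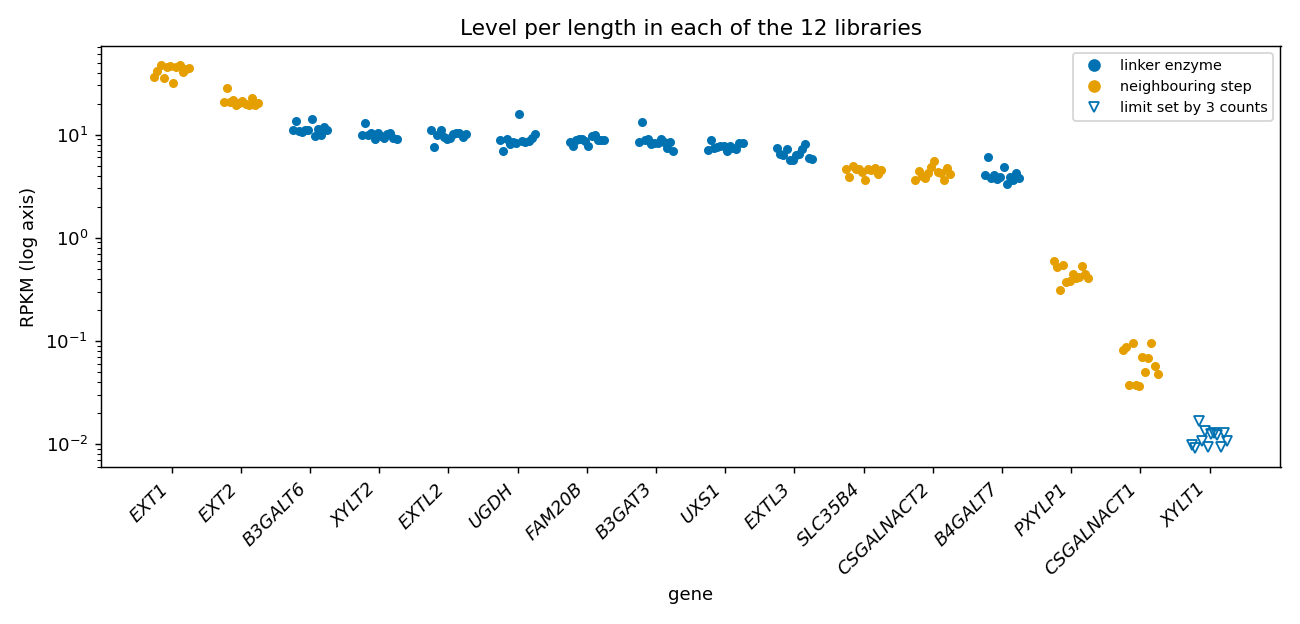
RPKM (log axis) in each of 12 libraries for the linker genes (blue) and 6 genes of neighbouring steps (orange), ordered by mean, with open triangles for the limit that 3 counts set for XYLT1. The means of 9 linker genes lie between 4.11 and 11.4 RPKM, while PXYLP1, CSGALNACT1 and XYLT1 lie below them.

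The 6 comparisons between lines called none of the linker genes. edgeR's quasi-likelihood test over all 16069 genes, with Benjamini-Hochberg adjustment, gave 0 of 9 at an adjusted p under 0.05 in every comparison, where 0% of all genes passed. DESeq2 and limma-voom also gave 0, but the share of all genes at adjusted p was taken for the main fit only. At an unadjusted p under 0.05, 1 of 9 passed in S534A against control vector, where 3.45% of all genes did. In the other comparisons 0 of 9 passed, against 0.871% of all genes in ∆GAG against control vector, 2.99% in S534A against ∆GAG, 1.1% in S545A against ∆GAG, 4.78% where S545A was set against S534A and 1.05% in S545A against control vector. The test over the 4 groups at once also gave 0 of 9, at adjusted p (0.00622% of all genes) and at unadjusted p (1.55%), with the lowest unadjusted p at 0.0861 for B3GAT3 and 0.195 for UGDH. Without the 4 libraries whose TGFBR3 level goes against the label, 0 of 9 passed at adjusted p, and at unadjusted p the count was 2 for ∆GAG against control vector (B3GALT6 and UGDH), where 9.07% of all genes passed in that fit. Against ∆GAG it was 1 for S534A (UGDH, with 11.1% of all genes) and 2 for S545A (B3GALT6 and UGDH, with 5.36%). Against control vector it was 0 for S534A (1.89% of all genes) and 1 for S545A (EXTL3, with 3.49%). Groups that did not overlap were found for 1 of 9 genes in S534A against control vector (7.65% of all genes) and 1 of 9 in S545A against control vector (8.82%). They were found for 0 of 9 in ∆GAG against control vector (4.87% of all genes), S534A against ∆GAG (5.66%), S545A against ∆GAG (5.05%) and S545A against S534A (10.1%). Comparisons share libraries, so their values are set side by side and not counted as separate evidence.

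The gene past the unadjusted threshold was B3GAT3, with a mean of 24.9 ± 6.59 CPM in S534A and 18.4 ± 1.80 in control vector. Its log2 fold change was 0.44 (SE 0.16, 95% interval 0.10 to 0.78), with an unadjusted p of 0.0148 and an adjusted p of 0.871. The groups did not overlap, as for 7.65% of all genes in that comparison, and the two-sided exact permutation test gave p = 0.1, the smallest that 3 against 3 can give. Leaving out S534A 2 brought the log2 fold change to 0.20 (unadjusted p = 0.0760), and leaving out control vector 3 to 0.38 (unadjusted p = 0.0562). Without the 4 doubted libraries it was 0.46, with control vector 1 as the only library of its group. B3GAT3 was also the gene with the largest difference when S545A was set against control vector (log2 fold change 0.17, SE 0.16) or against S534A (-0.27, SE 0.16), where its unadjusted p was 0.297 and 0.105. Against S534A the value was -0.03 without S534A 2 (unadjusted p = 0.794).

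UGDH gave the largest difference in the other 3 comparisons. In ∆GAG against control vector its means were 44.6 ± 17.0 and 37.8 ± 2.82 CPM, a log2 fold change of 0.24 (SE 0.21, 95% interval -0.21 to 0.69, adjusted p = 1.00). Without ∆GAG 1 it was -0.13. It was 0.85 without libraries 2 and 3 of both groups, whose TGFBR3 level goes against the labels, which leaves 1 library in each group. Against ∆GAG, the log2 fold change was -0.41 (SE 0.21) for S534A and -0.41 (SE 0.21) for S545A, with unadjusted p of 0.0681 and 0.0705. Without ∆GAG 1 they were -0.05 and -0.04 (unadjusted p = 0.679 and 0.717), so both rested on that library. Both were -0.94 without the 4 doubted libraries (adjusted p = 0.128 and 0.300), which leaves ∆GAG 1 as the only ∆GAG library. In S545A against control vector the groups of UGDH did not overlap, at 33.6 ± 1.02 and 37.8 ± 2.82 CPM, where 8.82% of all genes did not overlap, and the log2 fold change of -0.17 had a 95% interval from -0.62 to 0.28.

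Because a p above the threshold does not show equal levels, the intervals are given as well. Over the 6 comparisons the 95% intervals reached at most a 1.25-fold difference in either direction for UXS1, 1.26-fold for FAM20B, 1.28-fold for EXTL2, 1.33-fold for EXTL3, 1.34-fold for B3GALT6 and 1.35-fold for XYLT2. They were wider for the least steady genes, with 1.56-fold for B4GALT7, 1.72-fold for B3GAT3 and 1.82-fold for UGDH. These intervals are from the main fit, with labels as given and libraries 2 and 3 counted separately. Under the alternatives, the log2 fold change of B3GALT6 reached 0.51 in ∆GAG against control vector, beyond its largest bound of 0.42. That of UGDH reached -0.94 in S534A against ∆GAG, beyond a bound of 0.86 in size. XYLT1 could not be compared, and a difference below the limit of 3 counts was not detectable at this depth.

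**Figure D4:**
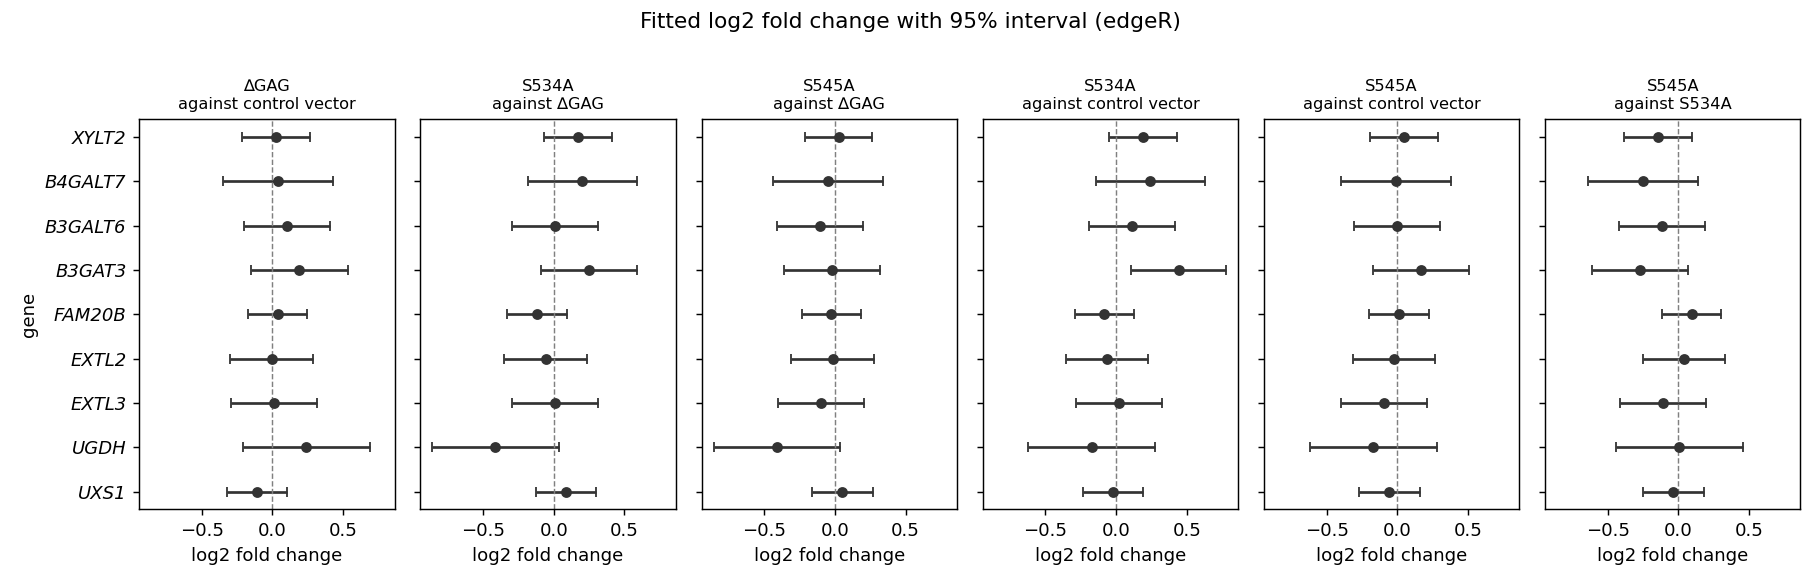
Fitted log2 fold change (points) with 95% interval (bars) of the 9 expressed linker genes in the 6 comparisons. B3GAT3 in S534A against control vector has the only interval that does not cross 0, from 0.10 to 0.78, and UGDH has the widest intervals.

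The libraries in which linker genes stood apart were also those that stood apart in genes of endoplasmic reticulum stress. The mean log2(CPM + 1) of 10 such genes was 8.58 in ∆GAG 1 and 5.10 in S534A 2, against 5.94 to 7.08 in the other 10 libraries. All 10 genes of that list were highest in ∆GAG 1, and 6 were lowest in S534A 2. In S534A against ∆GAG 5 of them were lower at an unadjusted p under 0.05, where 2.99% of all genes passed, and 0 at adjusted p. In the other 5 comparisons 0 of 10 passed either level. The list was chosen with earlier results of these data known. UGDH was highest and lowest in those same libraries, B3GAT3 was highest in S534A 2 but 20.2 CPM in ∆GAG 1, within its range elsewhere. The part of this pattern in the differences between lines was not tested. By the same measure over the 12 libraries, the genes most like UGDH were SELK, SERP1 and MAP1LC3B (Pearson correlation of 0.98, 0.98 and 0.96), all highest in ∆GAG 1 and lowest in S534A 2. The genes most like B3GAT3 were RMDN3, ARID5A and ACAP3 (0.95 each), all highest in S534A 2. With both libraries left out, a choice made after seeing the data, the log2 fold change of UGDH in ∆GAG against control vector was -0.12 and that of B3GAT3 in S534A against control vector was 0.20.

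**Figure D5:**
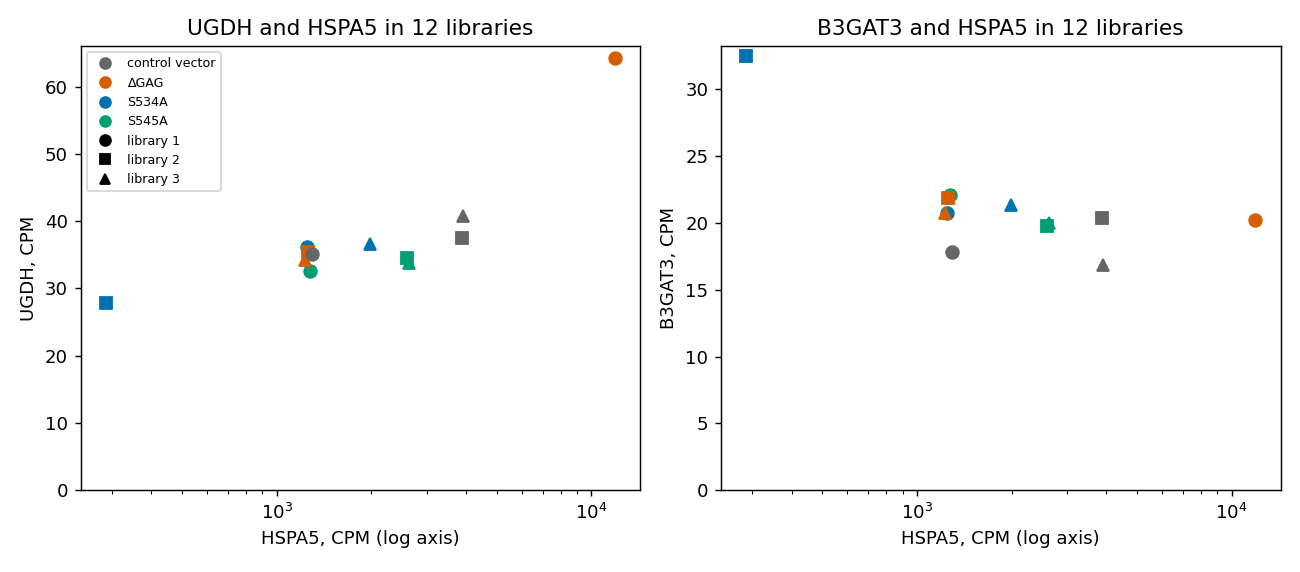
CPM of UGDH (left) and B3GAT3 (right) against HSPA5 CPM (log axis), a point per library coloured by line and shaped by library number. UGDH is at 64.2 CPM where HSPA5 is at 11864 CPM (∆GAG 1) and at 27.9 CPM where HSPA5 is at 287 CPM (S534A 2), while B3GAT3 is highest in the library with the least HSPA5.

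Genes of the neighbouring steps were read beside the linker genes, from lists written by hand. Of 16 genes for donor supply and the linker's neighbours, 14 were tested, and 1 had an unadjusted p under 0.05 in S534A against ∆GAG and 1 in S545A against S534A, in both cases SLC35D1, a transporter of UDP-glucuronic acid (log2 fold change 0.31 and -0.28). Of 20 genes for the heparan chain, 11 were tested. HS6ST2, a 6-O-sulfotransferase, had a log2 fold change of 0.31 in S534A against control vector and of -0.34 when S545A was set against S534A, and SULF2, an extracellular 6-O-endosulfatase, had -0.39 in S545A against ∆GAG, each at an unadjusted p under 0.05. Of 16 genes for the chondroitin chain, 14 were tested, and CHST12 (0.19) and CHST14 (0.28), both 4-O-sulfotransferases, passed that level in S534A against ∆GAG and the polymerase CHSY1 (0.20) in S534A against control vector. None of these genes passed at adjusted p, and 1.1% to 4.78% of all genes passed at unadjusted p in the comparisons named here. SLC35D1, HS6ST2, CHST12, CHST14 and CHSY1, those named for comparisons with S534A, were each highest in S534A 2, a library that stood apart in HSPA5. Whether their differences hold without S534A 2 was not tested. The medians of the 3 lists lay between -0.17 and 0.07 on the log2 scale over the 6 comparisons, and those of the 9 linker genes between -0.11 and 0.04, around medians of all genes between -0.01 and 0.01.

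Some exon sequence of the linker genes is shared with genes on the opposite strand, and whether strand was used in counting is not given in the sources used here. UGDH shares 7.24% of its exon length with UGDH-AS1, which held 20 to 65 counts per library, against 603 to 1416 for UGDH. EXTL2 shares 8.87% with RP4-549L20.3 (0 counts), EXTL3 shares 3.06% with EXTL3-AS1 (3 to 15 counts), XYLT2 shares 2.92% with RP11-893F2.18 (10 to 20 counts) and XYLT1 shares 2.04% with CTD-2576D5.4 (0 counts). Reads from these stretches cannot be assigned to a strand here, and the other 5 genes share none.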

How the data were processed

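RNA of 12 HEYA8 libraries was used. The authors deposited 1 table of raw counts per gene, and differential expression in the study was run in bioJupies. The submitters' processing notes name FastQC, Trim Galore 0.4.5, STAR 2.4, SAMtools 1.2 and featureCounts. They list a mouse genome build, but symbols and coordinates of the table are human: 33647 of the 36113 symbols found in GENCODE release 29 have the same GRCh38 coordinates. Which annotation release was used, and whether strand was, is not given in the sources used here.

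The deposited counts were filtered with filterByExpr at a minimum count of 10 and scaled by TMM. A robust quasi-likelihood model of the 4 groups was fitted in edgeR 4.0.16 (R 4.3.3), with 8 residual degrees of freedom and Benjamini-Hochberg adjustment over the 16069 genes tested. The biological coefficient of variation was 0.163. The test was checked on simulated data. Total counts were 16410001 to 29504297 per library. Single genes were also compared by two-sided exact permutation tests. Same-numbered libraries deviated together in all 3 pairs only for S545A and control vector (correlations 0.73, 0.48 and 0.48). The main fit used no pairing, and the replicate block, an alternative, was put on all 12 libraries.

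Genes named are the 10 linker genes, with fold changes for those at an unadjusted p under 0.05 and for the largest difference in each comparison, TGFBR3 and HSPA5 as checks, listed genes at an unadjusted p under 0.05 (at most 3 per list and comparison), 6 genes of neighbouring steps, and the 3 genes most correlated with each of the 2 most variable linker genes. The linker genes and all lists were chosen with earlier results of these data known. Alternatives were DESeq2 1.42.0, limma-voom (limma 3.58.1), RLE factors, library size only, no filter, at least 10 counts in every library, only the groups compared, the replicate block, each library left out, libraries with a TGFBR3 level against the label left out, and libraries 2 and 3 summed. Leaving out S534A 2 and ∆GAG 1 together was added after seeing the data.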

Additional observations from a re-analysis of the deposited data

How the results depend on the processing

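No linker gene passed an adjusted p under 0.05 under any alternative, and the lowest adjusted p was 0.128, for UGDH in S534A against ∆GAG without the 4 libraries whose TGFBR3 level goes against the label, where ∆GAG is left with 1 library that is assumed to vary like the other groups. Counts at an unadjusted p under 0.05, 1 in S534A against control vector and 0 in the other comparisons, moved as follows. Those without the 4 doubted libraries are given above with the share of all genes, from a fit that leaves ∆GAG and control vector 1 library each. Without S534A 2 and ∆GAG 1 the count was 2 in ∆GAG against control vector (B3GAT3 and FAM20B, with 5.55% of all genes passing). Against ∆GAG it was 1 for S534A (FAM20B, 3.25%) and 1 for S545A (FAM20B, 10.5%). Against control vector it was 0 for S534A (2.62%) and 1 for S545A (UGDH, 3.66%). With only the 2 groups in the fit, the count against control vector was 0 for S534A (1.85% of all genes) and 1 for S545A (UGDH, 2.61%). Summing libraries 2 and 3 gave 1 in S534A against ∆GAG (UGDH, with 1.61% of all genes), and no filter gave 1 over the 4 groups (B3GAT3, 1.77%). Leaving out 1 library gave counts of 0 to 1 for S534A and S545A against ∆GAG, for S534A against control vector, for S545A against S534A and over the 4 groups, and 0 in the other comparisons. S534A 1, S534A 3 and the 3 ∆GAG libraries each added 1 gene when left out (B3GAT3 for S534A, FAM20B for ∆GAG 1, UGDH for ∆GAG 2 or 3), and S534A 2 and control vector 3 each removed B3GAT3. Where a gene was added, 1.1% to 15.8% of all genes passed in the same fit and comparison, and where B3GAT3 was removed, 1.27% and 1.92% did. In S534A against ∆GAG, FAM20B passed in 2 of 18 settings, and both leave out ∆GAG 1.

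The log2 fold change of UGDH reversed to -0.13 in ∆GAG against control vector without ∆GAG 1, to -0.12 there without S534A 2 and ∆GAG 1, and to 0.064 in S534A against ∆GAG without the same pair. Leaving out 1 library gave -0.13 to 0.40 in ∆GAG against control vector. In S534A against ∆GAG it was -0.94 without the 4 doubted libraries, -0.56 and -0.57 without ∆GAG 2 or 3, and -0.05 without ∆GAG 1. In S545A against ∆GAG it was -0.04 without ∆GAG 1. The log2 fold change of B3GAT3 in S545A against S534A was -0.03 without S534A 2. The cause of these changes was not tested. In the order of levels per length, 0 to 3 genes changed place when 1 library was left out, with 3 without ∆GAG 1 and 2 each without S534A 2, ∆GAG 3, control vector 1 and control vector 3. The replicate block, for which the pairing held only between S545A and control vector, changed no call. At unadjusted p it gave 0 genes in S545A against control vector (1.23% of all genes), with a log2 fold change of 0.18 for B3GAT3. In S534A against control vector it gave 1 gene (3.58% of all genes) and 0.43 for B3GAT3. In ∆GAG against control vector it gave 0 genes (1.1% of all genes) and 0.21 for UGDH. Over all results and alternatives, 319 values kept their direction and side of the threshold or stayed within 1.5 times of the count, 32 moved, 10 passed the unadjusted threshold only under the alternative, 5 no longer passed it, and 3 reversed. Values that kept their side of the threshold include those of UGDH and B3GAT3 that came close to 0 without ∆GAG 1 or S534A 2. The 319 also include the counts at adjusted p, which were 0 under every alternative, while 0% of all genes passed in each comparison of the main fit.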
